A study of Mus musculus with 8 samples.

Results

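The constitutive proteasome genes were compared in small-intestinal enterocytes of IE-Cpr-null mice and wild-type (WT) littermates. The members were all probe sets with a single platform gene symbol of the form Psm, a letter from a to g and a number, without the interferon-induced genes Psmb8, Psmb9, Psmb10, Psme1 and Psme2. This rule took 77 of the 18443 probe sets and 43 of the 10401 genes with a single symbol. Of these genes, 14 encode subunits of the core particle, 17 encode subunits of the regulatory particle, 7 encode assembly factors and 3 encode other regulators. The remaining 2, Psmc3ip and Psme3ip1, meet the symbol pattern but encode no proteasome subunit. Psma8 and Psmb11, subunit variants best known from testis and thymus, were not analysed here.

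The proteasome degrades proteins that carry ubiquitin chains. Its core particle is a barrel of stacked rings, with alpha subunits forming the outer rings and the gate, and beta subunits forming the inner rings that hold the proteolytic sites. The regulatory particle sits on the barrel: its base unfolds the substrate with a ring of ATPases, and its lid removes the ubiquitin. The subunits are needed in fixed proportion, and their genes are known to be induced together by the transcription factor Nrf1, the product of Nfe2l1, when proteasome activity falls short. In the small intestine, where the epithelium is renewed rapidly, the proteasome also supplies peptides for MHC class I presentation.

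The name IE-Cpr-null stands for loss of the gene of NADPH-cytochrome P450 reductase, which passes electrons to microsomal P450 enzymes, from the intestinal epithelium. All mice were male, C57BL/6 by strain and 2.5 to 3.0 months old, and the labels name no agent given to either genotype. The labels name no Cre driver, and the targeted gene itself was not analysed here. There were 4 arrays per genotype, hybridised with the enterocyte RNA of a pool of 2 mice each (8 mice per genotype). Errors are therefore those between pools, which average over mice. Values are log2, with the WT median of each probe set at 0. A level of expression is therefore unknown, the WT values straddle 0 by construction, and all differences below are IE-Cpr-null minus WT on the log2 scale (n = 4 arrays per genotype). Where a gene had several probe sets (20 genes, with up to 6 each), its value is their mean.

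Other tissues were present unevenly. Of 11 measured pancreatic acinar markers all 11 were lower in IE-Cpr-null, and their mean was -0.65, 1.54, -4.80 and 0.61 on WT arrays 1 to 4 and -1.93, -4.95, -5.05 and -4.94 on IE-Cpr-null arrays 1 to 4. Muscle and stromal markers (14 measured) had a mean of 3.94 on IE-Cpr-null 1 and 1.55 on WT 2, against -0.41 to 0.12 on the other arrays. Hepatocyte markers (12 measured) had a mean of 4.91 on IE-Cpr-null 2 and 3.06 on IE-Cpr-null 3, against -0.11 to 0.15 elsewhere. Enterocyte markers (12 of 14 measured) had a median difference of -0.019. On IE-Cpr-null 1 their median was -0.11, with 11 of 12 below 0, against -0.032 to 0.030 on the other arrays. By the mean IE-Cpr-null 1 (-0.10) and WT 1 (-0.094) were close, and 9 of 12 were below 0 on WT 1 and on WT 4. Because the values are centred, the presence of enterocyte markers could not be checked as a level.

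Transcripts of the constitutive proteasome differed little between the genotypes, and most stood slightly lower in IE-Cpr-null. Of the 31 subunit genes, 27 were lower and 4 higher, with a median difference of -0.058, or 96.1% of WT. Over all 10401 genes 42.4% were lower, and the median difference was 0.016. That share was 47.8% with arrays centred on their median, and 53.5% over probe sets with an SD above the table's median. No subunit gene passed an adjusted p of 0.05 in limma (0 of 31), where 0.0288% of all genes were called, and at an unadjusted p under 0.05 there were 5 subunit genes lower (16.1%) and 0 higher, against 5.42% and 3.27% of all genes. Among the 77 member probe sets 0 passed, against 0.0217% of all probe sets, with 4 at an unadjusted p under 0.05, all lower (4.47% of all probe sets, and 2.92% higher). The members share the same 8 arrays and are not independent of each other, so their shared direction was not tested. In bulk RNA fewer cells of a type and less RNA per cell cannot be told apart.

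At gene level the intervals of the differences were narrow. For 30 of the 31 subunit genes the 95% interval of limma lay wholly within 80 to 125% of WT, which held for 64.6% of all genes. The exception was Psmd1. These are intervals of probe set means, and single probe sets could reach beyond the bound. The interval was -0.58 to 0.057 in 1 of 6 Psmd11 probe sets and -0.33 to 0.088 in 1 of 3 of Psmd7. Dim probe sets could not be told from stable ones, so a narrow interval may also reflect low signal. Subunit genes ranged from 86.6% of WT (Psmd1) to 102% (Psmc6), and their 248 values by gene and array ran from -0.27 to 0.27. Cytosolic ribosomal protein genes, another set of housekeeping genes, had a median difference of -0.018, with 29 of 43 lower. Only 48.8% of them had an interval within 80 to 125% of WT.

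**Figure D1:**
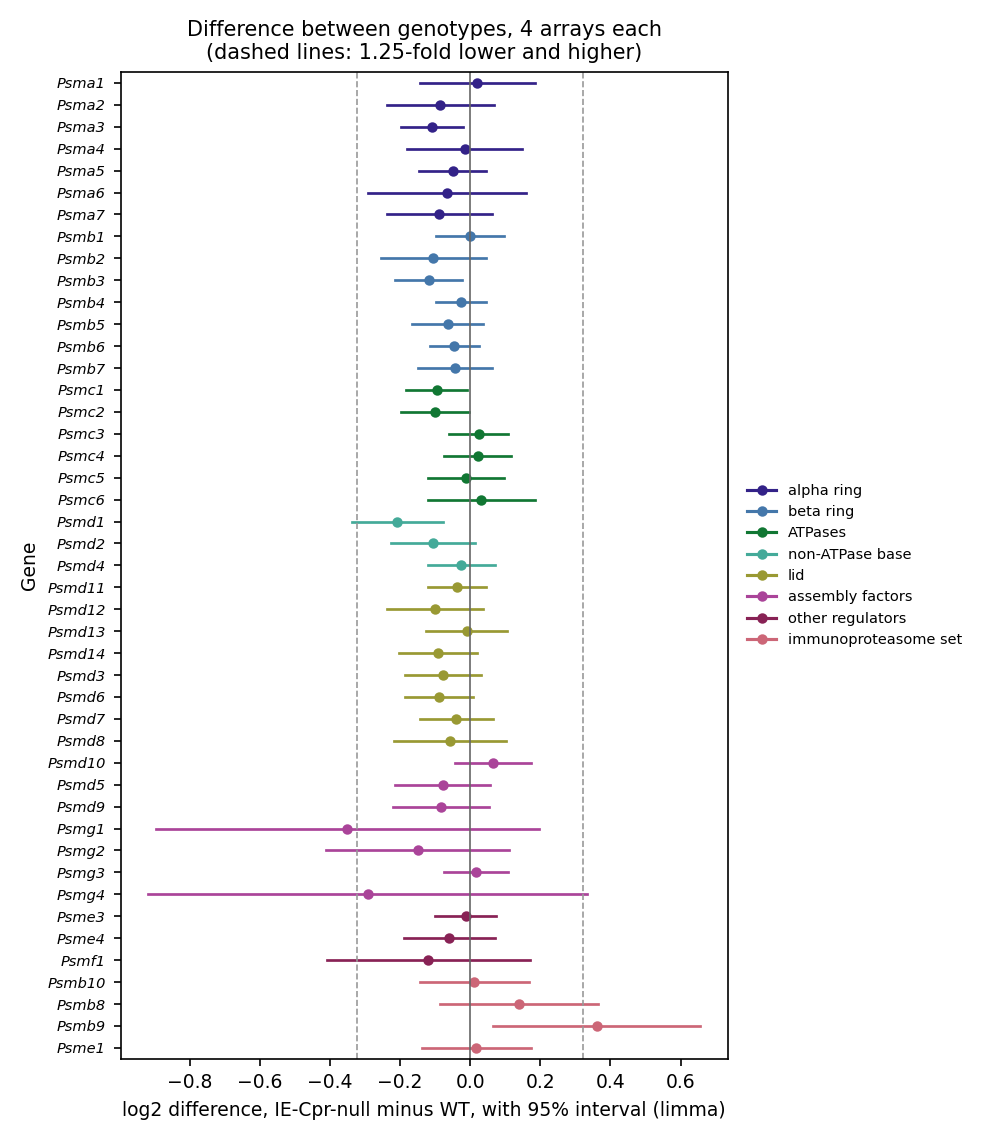
Difference between IE-Cpr-null and WT for each gene on the log2 scale (points) with the 95% interval from limma (lines), coloured by class, for 4 arrays per genotype. Points of the core and regulatory particle lie close to 0 and mostly left of it, all their intervals but that of Psmd1 stay inside the dashed lines (80 and 125% of WT), and the intervals of Psmg1, Psmg4 and Psmb9 are wide.

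On single arrays the core and regulatory particle had similar medians. The median over the 14 core genes was 0.010, 0.018, -0.018 and 0.0068 on WT arrays 1 to 4 and -0.074, -0.076, -0.020 and -0.051 on IE-Cpr-null arrays 1 to 4. The median over the 17 regulatory particle genes was 0.019, 0.011, -0.011 and -0.014 over WT arrays 1 to 4 and -0.082, -0.046, -0.035 and -0.061 over IE-Cpr-null arrays 1 to 4. Both medians were lower on every IE-Cpr-null array than on any WT array, but for the core the gap between IE-Cpr-null 3 (-0.020) and WT 3 (-0.018) was minimal, and with means in place of medians these arrays overlapped (-0.019 and -0.037). The median over all genes on the IE-Cpr-null arrays was 0.031, 0.021, -0.013 and 0.014. WT 3, low in acinar markers like the IE-Cpr-null arrays, had the lowest core median of the WT arrays (-0.018) and a regulatory median of -0.011. IE-Cpr-null 1 was the least low in acinar markers of its group and the lowest in the median of enterocyte markers. It had a core median of -0.074 and the lowest regulatory median, at -0.082. Without the muscle-rich arrays the core median difference was -0.054 and the regulatory one -0.039, and without the hepatocyte-rich arrays they were -0.065 and -0.072. Beyond these values, the part of the other tissues in the differences was not tested.

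**Figure D2:**
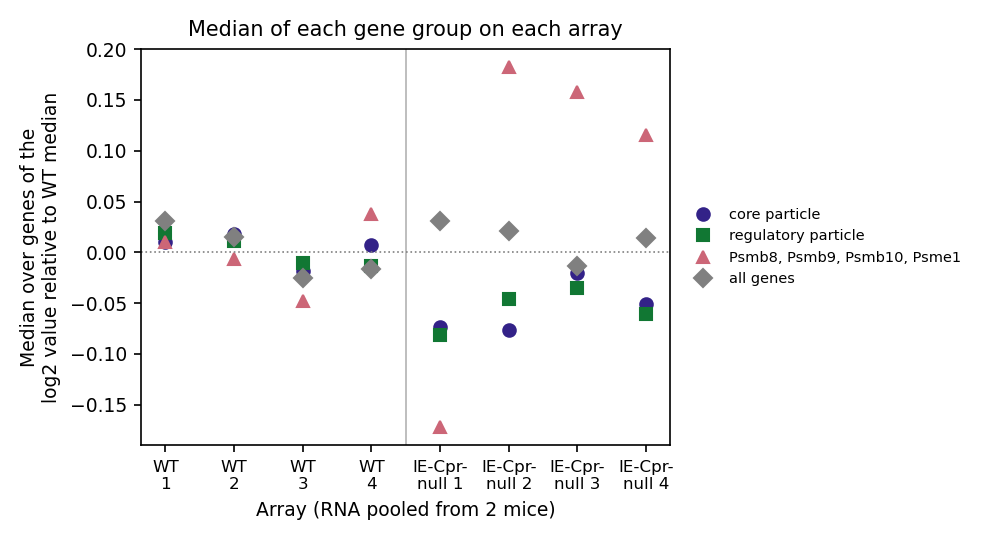
Median over genes of the log2 value on each array, for the core particle, the regulatory particle, 4 interferon-induced proteasome genes and all genes. The core and regulatory medians lie between -0.018 and 0.019 on the WT arrays and between -0.082 and -0.020 on the IE-Cpr-null arrays, while the interferon-induced genes are high on IE-Cpr-null 2, 3 and 4 and low on IE-Cpr-null 1.

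Proteasome promoters are shown here because 27 of the 31 subunit genes stood lower and the genes are known as a co-regulated group. Promoters of 300 bases, from 250 before to 50 after the start, were found in RefSeq (build GRCm38.p6) for 25 of the 31 subunit genes. They were searched on both strands for TGACNNNGC, the core of the antioxidant response element through which Nrf1 acts, and for CCAAT, the NF-Y box. No member promoter held both motifs. The first occurred in 14.8% of the 27 promoters of subunit genes and in 12.4% of all 32851 promoters, and the second in 37.0% and 37.4%. Pooled over both particles, neither share stood far from the background, which was 13.9% and 37.3% over promoters of genes on the array. By particle, CCAAT occurred in 6 of 12 core promoters (50%) and in 4 of 15 regulatory particle promoters (26.7%). The first motif occurred in 2 of 12 (16.7%) and 2 of 15 (13.3%). The numbers are small, and the particles were not tested against each other. Psmb5 and Psmb6 encode proteolytic subunits and hold the first motif. Psma3 holds 3 CCAAT matches, at -139, 13 and 30 relative to the start, so not all lie before it. Psmd1, the subunit gene with the largest difference, holds neither motif in this window. Matches are in capitals.
Psmb5 promoter, chr14:54617946-54618245, minus strand: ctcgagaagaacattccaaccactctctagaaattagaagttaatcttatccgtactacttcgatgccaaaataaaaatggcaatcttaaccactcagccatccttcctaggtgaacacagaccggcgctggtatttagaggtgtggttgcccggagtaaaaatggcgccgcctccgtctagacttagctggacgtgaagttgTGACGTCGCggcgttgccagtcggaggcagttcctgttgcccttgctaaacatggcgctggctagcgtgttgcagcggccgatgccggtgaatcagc
Psmb6 promoter, chr11:70525107-70525406, plus strand: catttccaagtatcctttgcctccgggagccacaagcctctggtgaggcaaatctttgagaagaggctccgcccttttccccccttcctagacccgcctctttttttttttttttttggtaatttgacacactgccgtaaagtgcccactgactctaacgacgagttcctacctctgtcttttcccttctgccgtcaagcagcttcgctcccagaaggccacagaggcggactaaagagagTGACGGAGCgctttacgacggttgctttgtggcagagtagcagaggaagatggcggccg
Psma3 promoter, chr12:70974373-70974672, plus strand: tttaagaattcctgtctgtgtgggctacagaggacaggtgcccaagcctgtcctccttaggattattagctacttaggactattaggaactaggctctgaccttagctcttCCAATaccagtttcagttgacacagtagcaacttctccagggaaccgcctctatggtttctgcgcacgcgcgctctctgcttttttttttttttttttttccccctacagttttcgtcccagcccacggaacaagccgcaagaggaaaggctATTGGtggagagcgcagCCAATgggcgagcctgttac
Psmd1 promoter, chr1:86064369-86064668, plus strand: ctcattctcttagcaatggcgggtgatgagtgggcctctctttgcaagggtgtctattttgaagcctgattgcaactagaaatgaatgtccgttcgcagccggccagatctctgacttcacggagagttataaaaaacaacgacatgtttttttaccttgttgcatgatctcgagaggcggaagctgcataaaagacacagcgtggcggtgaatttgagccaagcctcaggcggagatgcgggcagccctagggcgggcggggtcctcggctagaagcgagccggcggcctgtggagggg

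In the core particle 13 of 14 genes were lower in IE-Cpr-null and 1 higher, with a median difference of -0.057 (96.1% of WT) and a range of -0.12 to 0.021. None (0 of 14) passed over all genes (smallest limma adjusted p = 0.452), where 0.0288% of all genes were called. At an unadjusted p under 0.05 there were 2 lower (14.3%), 1 in each ring, and 0 higher, against 5.42% and 3.27% of all genes. Psmb3 alone of the 14 genes (7.14%) had groups apart, where 3.00% of all genes lay lower without overlap.

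Among the 7 measured alpha ring genes, 6 were lower and Psma1 was higher, at 0.021 (SE 0.0708). The largest difference was that of Psma3, an outer-ring structural subunit. Psma3 read -0.015, 0.015, -0.082 and 0.037 on the WT arrays and -0.081, -0.12, -0.12 and -0.16 on the IE-Cpr-null arrays. The 3 lowest arrays were all IE-Cpr-null, and IE-Cpr-null 1 was just level with WT 3. Its difference was -0.11 (SE 0.0377, 92.7% of WT, unadjusted p = 0.0212, limma adjusted p = 0.452). With array weights, which gave IE-Cpr-null 4 a weight of 6.49 and IE-Cpr-null 1 a weight of 0.329, Psma3 passed (-0.16, adjusted p = 0.0288), in a setting that called 5.63% of all genes and 2 of the 43 members. Over all alternatives its adjusted p ran from 0.0288 to 0.933. The other alpha genes, Psma2, Psma4, Psma5, Psma6 and Psma7, differed by -0.088 to -0.016, within their spread. Psma6 showed how far probe sets of 1 gene can part: 1 of its 4 ran from -0.47 to 0.97 on the WT arrays alone, while the other 3 stayed between -0.23 and 0.093 on every array.

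All 7 measured beta ring genes were lower. The proteolytic subunits are encoded by Psmb5, Psmb6 and Psmb7, which carry the chymotrypsin-like, caspase-like and trypsin-like sites. Psmb5 read -0.011, -0.020, 0.066 and 0.011 over WT arrays 1 to 4 and -0.12, -0.041, 0.037 and -0.093 over IE-Cpr-null arrays 1 to 4. Psmb6 read -0.018, 0.021, -0.020 and 0.018 over WT arrays 1 to 4 and -0.066, -0.050, -0.0093 and -0.055 over IE-Cpr-null arrays 1 to 4. Psmb7 read 0.091, 0.0027, -0.061 and -0.0027 over WT arrays 1 to 4 and 0.040, -0.083, -0.045 and -0.058 over IE-Cpr-null arrays 1 to 4. In all 3 genes the groups overlapped, through IE-Cpr-null 3 in Psmb5 and Psmb6 and through several arrays in Psmb7. Their differences were -0.065 (SE 0.0436), -0.045 (SE 0.0303) and -0.044 (SE 0.0452), and the lowest end of their 95% intervals was -0.17, so that each remained above 80% of WT.

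Of the structural beta genes, Psmb3 differed the most. Psmb3 read 0.034, 0.12, -0.014 and -0.033 on the WT arrays and -0.11, -0.083, -0.11 and -0.061 on the IE-Cpr-null arrays. Every IE-Cpr-null array lay below every WT array, and the difference was -0.12 (SE 0.0412, 92.1% of WT, unadjusted p = 0.0217, limma adjusted p = 0.456). Both of its probe sets were lower (-0.12 each), though each alone overlapped, and with array weights the difference was -0.076. Psmb2 was next at -0.11 (SE 0.0642), with -0.028, 0.026, -0.016 and 0.016 on the WT arrays and -0.23, -0.20, 0.032 and -0.025 on the IE-Cpr-null arrays. Psmb4 (-0.027) and Psmb1 (-0.0020) were nearly level.

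**Figure D3:**
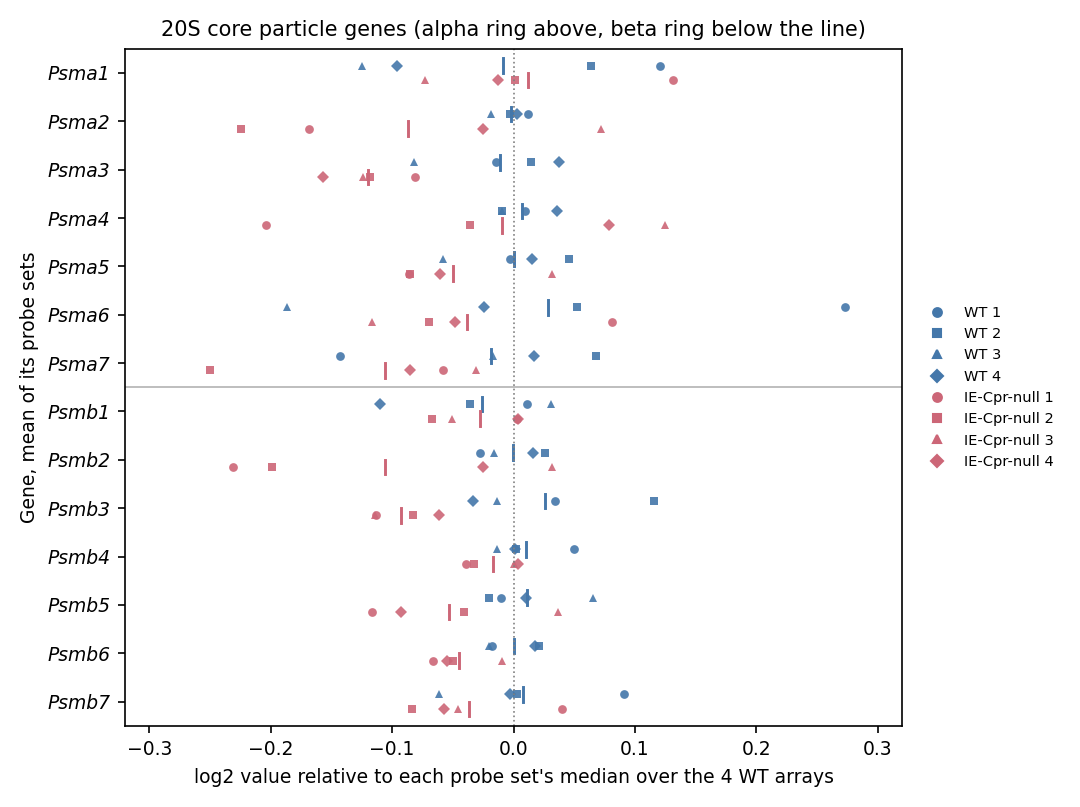
Log2 value of each core particle gene on each array, relative to the WT median of each probe set (horizontal axis), with WT arrays in blue, IE-Cpr-null arrays in red, a marker shape for each replicate number and group means as vertical bars. Values lie between -0.25 and 0.27, the groups overlap in 13 of 14 genes, and the exception is Psmb3.

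In the regulatory particle 14 of 17 genes were lower and 3 higher, with a median difference of -0.058 (96.1% of WT) and a range of -0.21 to 0.031. None (0 of 17) passed over all genes (smallest adjusted p = 0.333), and at an unadjusted p under 0.05 there were 3 lower and 0 higher, against 5.42% and 3.27% of all genes. The groups did not overlap in 2 genes (11.8%), Psmc1 and Psmd1, both lower, where 3.00% of all genes lay lower without overlap. The regulatory median depended on 1 WT array and on how probe sets were counted: it was -0.032 without WT replicate 1, -0.037 with quantile normalization and -0.030 over the 32 probe sets.

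The ATPases of the base were split evenly, with 3 lower and 3 higher and a median of 0.0045. Psmc1 read 0.080, 0.011, -0.011 and -0.041 over WT arrays 1 to 4 and -0.096, -0.094, -0.043 and -0.11 over IE-Cpr-null arrays 1 to 4. Its groups did not overlap, though IE-Cpr-null 3 (-0.043) lay just below WT 4 (-0.041), and the difference was -0.096 (SE 0.0374, adjusted p = 0.521). Psmc2 read 0.028, 0.037, -0.12 and -0.018 over WT arrays 1 to 4 and -0.11, -0.12, -0.10 and -0.14 over IE-Cpr-null arrays 1 to 4. Here WT 3 lay within the IE-Cpr-null range, and the difference was -0.10 (SE 0.0415, adjusted p = 0.561), or -0.064 with quantile normalization. Psmc3, Psmc4 and Psmc6 were higher by 0.024, 0.021 and 0.031, and Psmc5 differed by -0.012, all within their spread.

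The non-ATPase base genes encode the large scaffolds Psmd1 and Psmd2 and the ubiquitin receptor Psmd4. Psmd1 read -0.020, 0.13, -0.10 and 0.020 on the WT arrays and -0.27, -0.15, -0.21 and -0.17 on the IE-Cpr-null arrays. All 4 IE-Cpr-null arrays lay below the lowest WT array, WT 3. The difference of -0.21 (SE 0.0555, 86.6% of WT, 95% interval -0.34 to -0.079) was the largest of any subunit gene, with an unadjusted p of 0.00625 and a limma adjusted p of 0.333. It rested on a single probe set. It was lower as deposited and in each alternative (-0.24 to -0.14) and passed in 1 of them, array weights, where 5.63% of all genes passed (-0.20, adjusted p = 0.0356, the lowest of a range up to 0.933). Psmd2 read 0.020, -0.036, 0.076 and -0.020 over WT arrays 1 to 4 and -0.00054, -0.046, -0.15 and -0.18 over IE-Cpr-null arrays 1 to 4. Only IE-Cpr-null 3 and 4 stood clearly lower there, and the difference was -0.11 (SE 0.0516, adjusted p = 0.640). Psmd4 was level (-0.025, SE 0.0411).

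All 8 lid genes were lower, by 0.010 to 0.10, with a median of -0.068, and 0 of them reached an unadjusted p of 0.05. Psmd12, a structural lid subunit, differed the most and read -0.0089, 0.0089, -0.12 and 0.014 over WT arrays 1 to 4 and -0.18, -0.24, -0.028 and -0.061 over IE-Cpr-null arrays 1 to 4. IE-Cpr-null 1 and 2 were low there, and IE-Cpr-null 3 and 4 lay above WT 3 (difference -0.10, SE 0.0588, adjusted p = 0.740, and -0.063 without IE-Cpr-null replicate 2). Psmd14, the deubiquitinase of the lid, read -0.013, 0.037, 0.013 and -0.039 over WT arrays 1 to 4 and -0.21, -0.085, -0.035 and -0.035 over IE-Cpr-null arrays 1 to 4. Its 2 highest IE-Cpr-null arrays lay just above WT 4, and the difference was -0.091 (SE 0.0476, adjusted p = 0.688).

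Probe sets of the lid genes did not always read alike. For Psmd6 1 of 2 probe sets read 0.036, 0.054, -0.038 and -0.036 over WT arrays 1 to 4 and -0.24, -0.20, -0.11 and -0.10 over IE-Cpr-null arrays 1 to 4, without overlap (-0.17, SE 0.0466, adjusted p = 0.409). The other differed by -0.0088 (SE 0.0788), with 0.17 on IE-Cpr-null 1 and -0.22 on IE-Cpr-null 3. Psmd6, singled out after its values were seen, thus had a mean difference of -0.089, and of -0.048 without the hepatocyte-rich arrays. Of 6 Psmd11 probe sets, 1 was low on IE-Cpr-null 1 and 4 (-0.52 on each) and the other 5 differed by -0.032 to 0.031. Over the 77 member probe sets the groups did not overlap in 3, Psmc1, Psmd1 and the first of Psmd6, all lower, where 2.47% of all probe sets lay lower without overlap and 1.64% higher. The values of 2 Psmd11 probe sets and that of Psmc3ip stayed within 0.05 of the array's own median on every array, as did 13.3% of all probe sets.

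**Figure D4:**
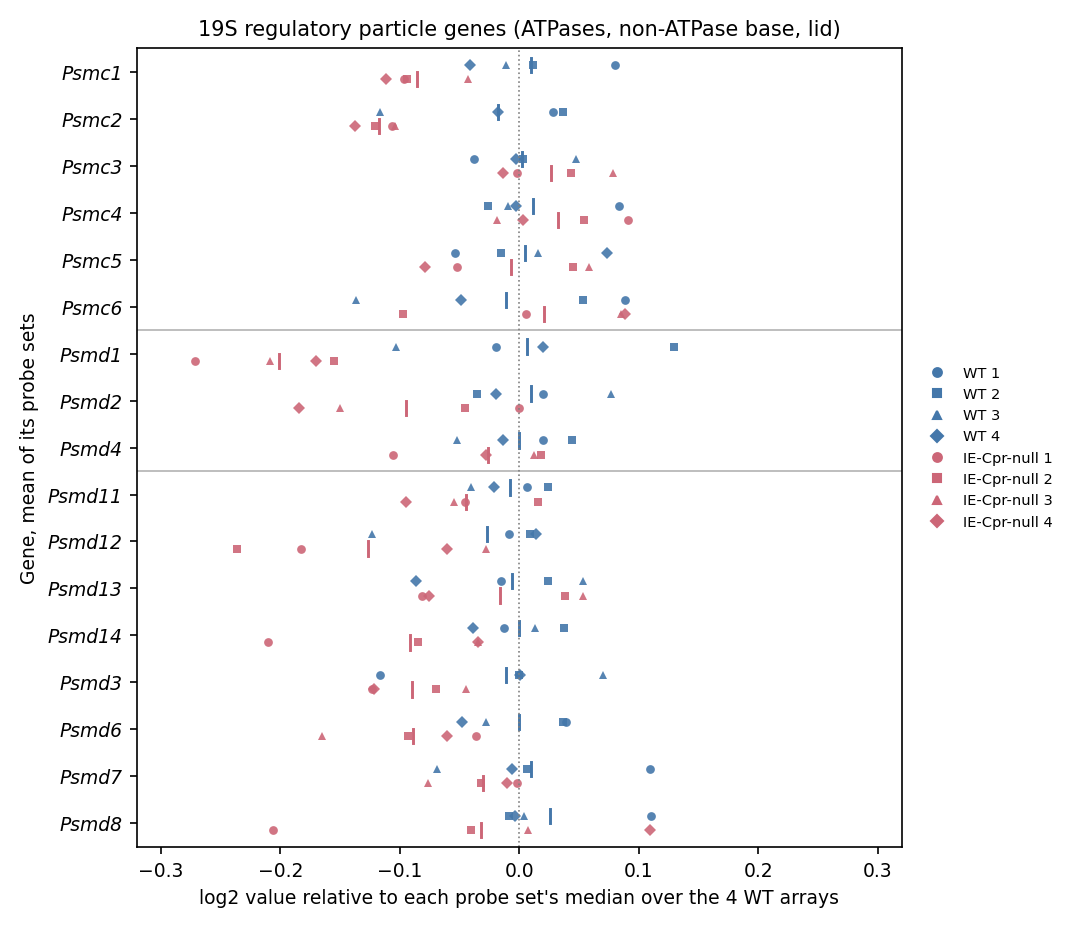
Log2 value of each regulatory particle gene on each array, drawn as for the core particle, with lines between ATPases, non-ATPase base and lid. Psmd1 stands apart with IE-Cpr-null values of -0.27 to -0.15, Psmc1 is separated by a narrow gap, and all other genes overlap.

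Assembly factors, which help build the particles but leave them when complete, were the most uneven members. Of 7 genes, 5 were lower and 2 higher, with a median difference of -0.084, and 0 reached an unadjusted p of 0.05. Psmg1, whose product forms a chaperone of the alpha ring together with that of Psmg2, read 0.22, -0.25, 0.046 and -0.046 over WT arrays 1 to 4 and 0.18, -0.82, -0.073 and -0.71 over IE-Cpr-null arrays 1 to 4. It was low on IE-Cpr-null 2 and 4 and within the WT range on 1 and 3, so that the difference of -0.35 (SE 0.235, 95% interval -0.90 to 0.20, adjusted p = 0.793) was within the spread. Leaving out IE-Cpr-null 1 gave -0.53, leaving out IE-Cpr-null 2 gave -0.20, and leaving out IE-Cpr-null 4 gave -0.23. Psmg2 differed by -0.15 (SE 0.112) and was highest on WT 1 (0.33). Psmg4, singled out after its values were seen, read 0.0046, -0.0046, 1.19 and -0.030 over WT arrays 1 to 4 and 0.034, -0.013, -0.023 and -0.0065 over IE-Cpr-null arrays 1 to 4. Its difference of -0.29 (SE 0.269, adjusted p = 0.836) came from WT 3 alone and was 0.0079 without it. The base chaperones Psmd5 (-0.079), Psmd9 (-0.084) and Psmd10 (0.065) lay within their spread, as did Psmg3 (0.017).

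The other regulators were Psme3 and Psme4, alternative caps of the core found mainly in the nucleus, and Psmf1, a protein that inhibits the isolated core. All 3 were lower, by 0.012, 0.060 and 0.12, within their spread. Psmf1 read 0.15, -0.012, -0.31 and 0.033 over WT arrays 1 to 4 and -0.36, -0.056, 0.063 and -0.27 over IE-Cpr-null arrays 1 to 4. The groups overlapped widely (SE 0.125, adjusted p = 0.836), and its 3 probe sets differed by -0.29, -0.13 and 0.058. Leaving out IE-Cpr-null 1 gave -0.052 and WT 1 gave -0.060, while leaving out IE-Cpr-null 3 gave -0.19 and WT 3 gave -0.21. Psmc3ip, a meiotic recombination factor (0.024), and Psme3ip1, which binds the Psme3 product (-0.064), also lay within their spread.

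**Figure D5:**
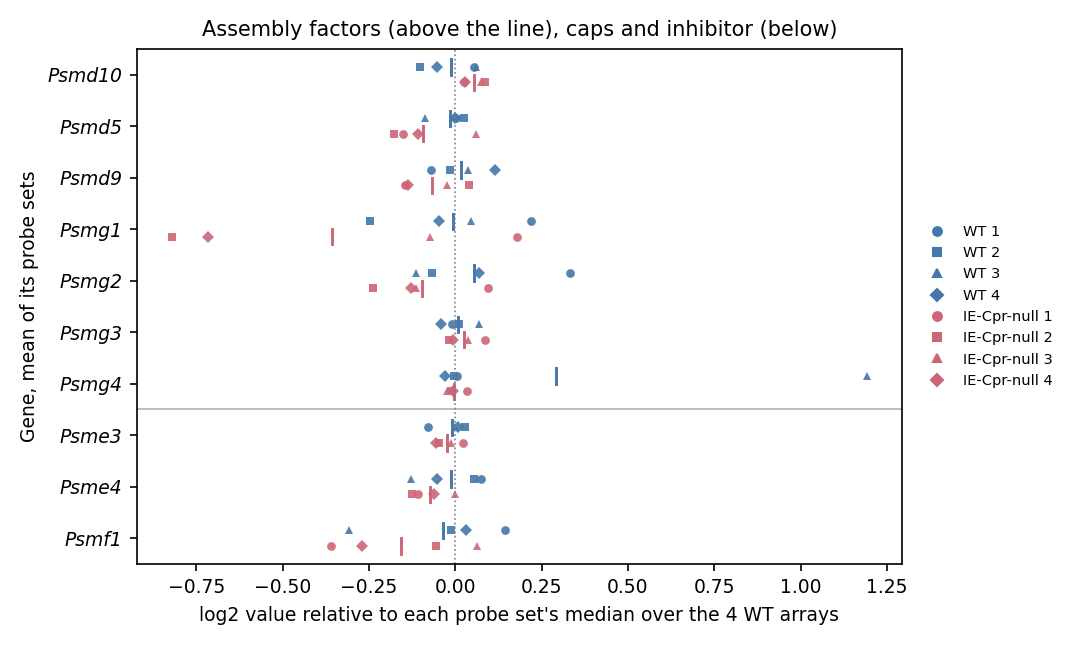
Log2 value of each assembly factor, alternative cap and inhibitor gene on each array, drawn as for the core particle but on a wider axis. Psmg4 is high on WT 3 alone (1.19), and Psmg1 is low on IE-Cpr-null 2 and 4 (-0.82 and -0.71).

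Proteasome-linked genes outside the rule showed a wider range. Of 20 measured genes, 13 were lower and 7 higher, with a median of -0.015 and 0 past the threshold. Ecpas, whose product Ecm29 clamps the regulatory particle to the core, read -0.052, 0.052, 0.092 and -0.086 over WT arrays 1 to 4 and -0.16, -0.27, -0.42 and -0.25 over IE-Cpr-null arrays 1 to 4. All IE-Cpr-null arrays lay below all WT arrays, as in 3.00% of all genes. The difference was -0.28 (SE 0.0664, 82.5% of WT, unadjusted p = 0.00344, limma adjusted p = 0.276). With array weights, where 5.63% of all genes were called, the limma adjusted p was 0.0352. Nfe2l1, the gene of Nrf1, read -0.052, -0.071, 0.052 and 0.057 over WT arrays 1 to 4 and 0.084, 0.29, 0.090 and 0.14 over IE-Cpr-null arrays 1 to 4. Here all IE-Cpr-null arrays lay above all WT arrays, as in 1.85% of all genes, and the difference was 0.15 (SE 0.0583, adjusted p = 0.509). Its highest value was on IE-Cpr-null 2, a hepatocyte-rich array. With each array left out the difference of Nfe2l1 ran from 0.11 to 0.18. Pomp, which encodes the maturation factor of the core, read -0.067, -0.010, 0.010 and 0.022 over WT arrays 1 to 4 and -0.015, 0.22, 0.13 and 0.12 over IE-Cpr-null arrays 1 to 4. It was high on 3 of 4 IE-Cpr-null arrays (difference 0.13, SE 0.0534, adjusted p = 0.569, and 0.063 without the hepatocyte-rich arrays). Nfe2l2, the gene of the related factor Nrf2, was level (0.017, SE 0.110).

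The 4 interferon-induced proteasome genes analysed had differences above 0, as did 5995 of all 10401 genes. On IE-Cpr-null 1 all 4 were below 0. Psmb9, which replaces Psmb6 in the immunoproteasome, read 0.028, -0.028, -0.038 and 0.055 over WT arrays 1 to 4 and -0.032, 0.60, 0.48 and 0.41 over IE-Cpr-null arrays 1 to 4. IE-Cpr-null 2, 3 and 4 were high and IE-Cpr-null 1 lay within the WT range. The difference was 0.36 (SE 0.127, limma adjusted p = 0.463). Without IE-Cpr-null replicate 1 it was 0.49 and passed in limma (adjusted p = 0.0352), with 0.365% of all genes called, against 0.0288% as deposited. It also passed with array weights (0.39, adjusted p = 0.0239, with 5.63% of all genes called). Without the hepatocyte-rich arrays IE-Cpr-null 2 and 3, on which Psmb9 was highest, it was 0.19 (adjusted p = 0.746). Psmb8 (0.14, SE 0.0968) followed the same arrays, while Psmb10 (0.012) and Psme1 (0.018) were level in the mean, with -0.18 on IE-Cpr-null 1 in each. Psmb5, Psmb6 and Psmb7, the constitutive counterparts of Psmb8, Psmb9 and Psmb10, differed by -0.065 to -0.044. The contrast between the sets was not tested.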

How the data were processed

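Per the labels' protocols, enterocyte total RNA was extracted with TRIzol, labelled with biotin as antisense RNA and hybridised to single-colour arrays. The authors deposited log2 values made with GCRMA, per the submitters' processing notes; no version is stated there. A further centring shows in the values: the median of the 4 WT arrays is 0 in all 18443 probe sets, within 1e-05. Probe sets were named from the platform annotation (16689 with 1 symbol, 616 with several, 1138 not named in it), and all 43 member symbols were current in the RefSeq gene table.

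Every probe set was tested with limma 3.58.1 in R 4.3.3 (lmFit and eBayes, 2 group means, two-sided, Benjamini-Hochberg over the whole table, threshold 0.05), and likewise the mean of the probe sets of each of 10401 genes. The number of arrays limits the precision. No filter on dim probe sets was possible in centred values. The bound of 80 to 125% of WT and the ribosomal set were chosen after the values were seen. The members and lists were chosen with earlier results of these data known. Values of every array are given for member genes whose groups did not overlap or whose unadjusted p was under 0.05, for the largest difference of each class, and for genes whose probe sets differ in sign with 1 at an unadjusted p under 0.05; Psmb2, Psmb5, Psmb6, Psmb7, Psmd2, Psmd14, Psmd6 and Psmg4 were added for their role or after their values were seen. Immunoproteasome genes are given for 4 genes, since the probe set of Psme2 carries several symbols. Alternatives included a replicate block, array weights, a robust prior, quantile normalization or median centring, filters on probe sets, and arrays left out. The scripts were tested on simulated data.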

Additional observations from a re-analysis of the deposited data

Results flagged for a closer look

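Within the 4 arrays of a genotype, 4 of 106 groups held an array far from the others (a gap above Dixon's critical value), where chance gives about 1 in 20. Psmg4 was 1.19 on WT 3 against at most 0.0046 on the other WT arrays. Psmd12 was -0.12 on WT 3, with the next WT array at -0.0089. Psmd8 was 0.11 on WT 1, with the next at 0.0039. Psmb8 was -0.17 on IE-Cpr-null 1, the array rich in muscle transcripts, with the next at 0.19.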

How the results depend on the processing

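The count of probe sets past the threshold over the whole table was 4 and moved with the processing. It was 1 with quantile normalization, 741 with array weights, 1 with the replicate block and 7 over the more variable probe sets (SD over the table's median), and ran from 1 to 16 with each array left out. Member probe sets past the threshold numbered 2 with array weights and 0 in every other setting run, and so did member genes (Psma3 and Psmd1, 2 of 43, with array weights, where 586 of 10401 genes or 5.63% passed). The core median (-0.057) kept its sign in all 18 alternatives, from -0.071 to -0.039. The replicate block and the robust prior cannot move a median difference, so their unchanged values say nothing of its stability. The value of -0.071 over the more variable probe sets rested on 2 of 14 core genes, 1 lower and 1 higher. The regulatory median (-0.058) also kept its sign, but was -0.037 with quantile normalization, -0.039 without the muscle-rich arrays, -0.030 over probe sets and -0.16 over those more variable probe sets, which left 4 of 17 genes, and ran from -0.069 to -0.032 with each array left out. Of the 31 subunit genes, 20 were lower in every setting that measured them, 10 in each particle. These settings reuse the same arrays, and the share of all genes lower in every setting was not computed. The count therefore has no background to be read against. Psmg4 turned, at 0.0079 without WT replicate 3, in a range of -0.40 to 0.0079 with each array left out. The labels do not say that replicate numbers pair the arrays. Same-numbered arrays correlated at -0.058, -0.041, 0.26 and 0.13 in their deviations, and the muscle-rich WT 2 and IE-Cpr-null 1 at 0.34. These deviations include those of other tissues, so they cannot decide whether arrays were paired. The replicate block changed no call of a member. Median centring removes the array medians and gave a core median of -0.071 and a regulatory median of -0.071. The median difference over all genes was 0.0027 with median centring and -0.019 over the more variable probe sets. Signal over background is unknown in centred values, so dim members could not be told from stable ones.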
